A study of Mus musculus with 31 samples.

Results

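The adherens junction of epithelial cells was followed through the genes of its core proteins: β-catenin (Ctnnb1), its close relative plakoglobin (Jup), α-catenin (Ctnna1), p120 catenin (Ctnnd1), E-cadherin (Cdh1) and P-cadherin (Cdh3). All probe sets that carried 1 of these 6 symbols in the annotation of the Affymetrix mouse array were taken, which gave 14 probe sets out of 45037 (6 of the 18193 genes with a probe set of their own). These were 3 probe sets for Ctnnb1, 4 for Ctnna1, 3 for Ctnnd1, 2 for Cdh3 and 1 each for Jup and Cdh1.

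Classical cadherins join neighbouring cells through their outer parts, and their tails bind β-catenin or plakoglobin, which in turn bind α-catenin and through it the actin cytoskeleton. p120 catenin binds the cadherin tail at another site and keeps the cadherin at the cell surface. β-catenin that is not held at the junction is marked for degradation by a complex built on Apc and Axin, and when it escapes this complex it enters the nucleus and activates genes together with Tcf and Lef factors. In the mammary gland P-cadherin belongs mainly to the basal, myoepithelial layer, whereas E-cadherin is strongest in the luminal layer.

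The series holds 31 arrays. Mammary tumors (11 arrays), large hyperplasias (5 arrays) and small hyperplasias (5 arrays) came from K5ΔNβcat mice, which express an HA-tagged β-catenin that lacks its N-terminal part, and so cannot be marked for degradation, from the keratin 5 promoter of basal cells. Control mammary tissue (4 arrays) came from control mice. Apart from these, mammary basal cells were sorted from K5creMycL/L mice, in which a Cre recombinase driven by the keratin 5 promoter deletes Myc, and from control mice (3 arrays each, each array from its own pool of several mice). The ΔNβcat transgene is not named in the labels of either sorted group. All samples are labelled as strain C57BL6, whereas the study's methods give a mixed background, and no age is given in the labels. Whether each tissue sample of a group was from its own animal is not stated in the labels. The p-values therefore rest on the spread among the arrays, which may be technical.

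Values are MAS5 signals on a linear scale, in which each array is scaled to a trimmed mean of 100 and a signal of 30 was the study's limit of background. Differences are first group minus second group on the scale of log2(signal + 16), with the standard error (SE) and the Benjamini-Hochberg adjusted p of a limma fit over all probe sets, and a probe set was called at an adjusted p under 0.05. Of the 14 probe sets, 12 were tested in each comparison, since the higher of both group medians had to reach 30. In tissue, Ctnna1 probe set 1437275_at (signals under 10 on all 25 arrays) and Cdh3 probe set 1441255_at (under 30 on all 25 arrays) were not tested. The 3 comparisons with control tissue share the same 4 control arrays.

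Normal mammary tissue is rich in fat. The 5 adipocyte markers measured had a summed signal of 639 to 6132 in tumors, 14799 to 19474 in large hyperplasias and 18641 to 24620 in small hyperplasias, against 38090 to 41933 in control tissue. The 8 markers of all epithelia (Epcam, claudins, Esrp1 and others) had a summed signal of 2665 to 5303 in tumors, 3192 to 4192 in large hyperplasias and 2696 to 3930 in small hyperplasias, against 1438 to 2693 in control tissue. For the 4 basal markers (Krt5, Krt14, Krt17, Trp63) the sums were 8004 to 12631 in tumors, 4948 to 8774 in large hyperplasias and 3933 to 5442 in small hyperplasias, against 650 to 904 in control tissue. The 5 luminal markers (Krt8, Krt18, Krt19, Elf5, Foxa1) summed to 1458 to 6871 in tumors, 2522 to 5486 in large hyperplasias and 4824 to 8095 in small hyperplasias, against 5032 to 7641 in control tissue. The 4 markers of cornified epithelium (Ivl, Lor, Krt10, Krt1) summed to 2869 to 18146 in tumors, 604 to 1323 in large hyperplasias and 417 to 1745 in small hyperplasias, against 95.3 to 140 in control tissue, where 2 of the 4 were under 30 on every array. The 4 smooth muscle markers, of a kind that myoepithelial cells express too, summed to 1803 to 3794 in tumors and 1621 to 2734 in large hyperplasias. They summed to 2729 to 3176 in small hyperplasias, against 4512 to 5212 in control tissue. The 4 leukocyte markers measured summed to 1990 to 4406 in tumors and 3761 to 5242 in large hyperplasias. Their sums were 2895 to 4342 in small hyperplasias, against 2143 to 3416 in control tissue. None of the basal, luminal or pan-epithelial markers was under 30 on every array of a group. In bulk tissue, fewer cells of a type and less RNA per cell cannot be told apart, and the part that tissue makeup plays in the differences below was not tested.

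Ctnnb1 signals were higher in all 3 groups of K5ΔNβcat tissue than in control tissue by each of the 3 probe sets. The size of the difference depended on the probe set: in tumors it was 1.40 times the control mean by 1420811_a_at, 4.94 times by 1430533_a_at and 5.53 times by 1450008_a_at. The suffix _a_at marks probe sets designed to read several transcripts of 1 gene. Probe sets 1420811_a_at and 1450008_a_at list the same reference transcript in the annotation, and 1430533_a_at lists an expressed sequence tag. Neither the place of the probes on the transcript nor whether the transgene holds their targets was known here.

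The transgene is driven by the keratin 5 promoter, so it does not use the start region of the endogenous Ctnnb1 gene. That region is printed here with the start region of Jup, the other catenin that binds the same cadherin tails. Start regions are only a part of the endogenous genes at which Tcf and Lef factors could act. Sites outside these windows were not searched. Both come from RefSeq (GRCm38.p6), from 250 bases before to 50 bases after an annotated transcription start, and capitals mark CTTTG, the core letters of the Tcf/Lef motif, on either strand. The Ctnnb1 window is chr9:120933328-120933627 on the plus strand, and the Jup window is chr11:100397741-100398040 on the minus strand.
Ctnnb1: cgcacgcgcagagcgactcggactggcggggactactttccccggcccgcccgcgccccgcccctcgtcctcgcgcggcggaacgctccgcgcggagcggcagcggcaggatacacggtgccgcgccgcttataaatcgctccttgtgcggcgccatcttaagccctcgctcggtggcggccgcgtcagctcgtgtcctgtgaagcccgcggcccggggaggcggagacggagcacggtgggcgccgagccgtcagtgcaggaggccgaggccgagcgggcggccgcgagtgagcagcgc
Jup: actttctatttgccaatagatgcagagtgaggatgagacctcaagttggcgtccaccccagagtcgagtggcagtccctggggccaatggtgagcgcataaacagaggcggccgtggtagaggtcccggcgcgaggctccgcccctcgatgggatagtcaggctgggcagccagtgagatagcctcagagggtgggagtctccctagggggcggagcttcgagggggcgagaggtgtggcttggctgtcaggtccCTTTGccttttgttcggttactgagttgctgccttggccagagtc

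The Ctnnb1 window holds no CTTTG, and the Jup window holds it once, 5 bases after the annotated start. Over all 32851 windows of this length in the table, 53.9% held the core. None of the 5 windows of Ctnnb1 (2), Ctnnd1 (2) and Jup (1) held CTTTGAA on either strand, nor the related CTTTGAT, nor the related CTTTGTA, nor the related CTTTGTT, longer forms that include the core and were found in 16.9% of all windows. None held CACCTG either, the letters that the Snai and Zeb repressors of E-cadherin bind, found in 20.2% of all windows. The printed Ctnnb1 window is rich in G and C (75.0%, with 51 CpG pairs), against 60.7% and 14 CpG pairs in the Jup window and a median of 52.7% and 7.0 CpG pairs over all windows. Cdh1, Cdh3 and Ctnna1 were not matched in this table.

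By its brightest probe set, 1420811_a_at, Ctnnb1 had signals of 2391, 2449, 3054 and 2579 in the 4 control tissues. It had 3594, 3014, 3419, 3834 and 3906 in small hyperplasias and 4007, 3520, 3982, 3573 and 3535 in large hyperplasias. The 11 tumors lay between 3370 and 4369 with a median of 3571. All tumors and all large hyperplasias were above every control tissue, and 4 of 5 small hyperplasias were. Against control tissue the differences were 0.49 in tumors (SE 0.079, adjusted p = 5.5e-06), 0.51 in large hyperplasias (SE 0.090, adjusted p = 6e-05) and 0.44 in small hyperplasias (SE 0.090, adjusted p = 0.00068). By this probe set tumors stood no higher than large hyperplasias (-0.02, SE 0.072, adjusted p = 0.84).

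Probe set 1450008_a_at gave another picture, with clear steps between control tissue, hyperplasias and tumors. Its signals were 546, 540, 706 and 606 in control tissue. They were 1864, 1092, 1632, 1801 and 1664 in small hyperplasias and 1685, 1690, 1711, 1523 and 1932 in large hyperplasias. The tumors lay between 2799 and 3839 with a median of 3372. No tumor overlapped any hyperplasia, and no hyperplasia overlapped any control tissue. Against control tissue the differences were 2.44 in tumors (SE 0.11, adjusted p = 7.9e-16), 1.49 in large hyperplasias (SE 0.13, adjusted p = 1.1e-09) and 1.39 in small hyperplasias (SE 0.13, adjusted p = 1.2e-08). Tumors were 0.95 above large hyperplasias (SE 0.10, adjusted p = 4.6e-08).

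Probe set 1430533_a_at followed the same order. Control tissue had signals of 542, 423, 704 and 530, and small hyperplasias had 1325, 729, 1291, 1279 and 1074. Large hyperplasias had 1427, 1173, 1374, 1099 and 1478, and tumors lay between 2396 and 3177 with a median of 2588. The groups again did not overlap with control tissue, and tumors did not overlap with hyperplasias. The differences from control tissue were 2.29 in tumors (SE 0.13, adjusted p = 6.5e-14), 1.24 in large hyperplasias (SE 0.15, adjusted p = 3e-07) and 1.02 in small hyperplasias (SE 0.15, adjusted p = 1.5e-05), and tumors were 1.04 above large hyperplasias (SE 0.12, adjusted p = 1.5e-07). Large and small hyperplasias did not differ by a called amount with any of the 3 probe sets (0.07, 0.22 and 0.10 in the order 1420811_a_at, 1430533_a_at and 1450008_a_at).

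**Figure D1:**
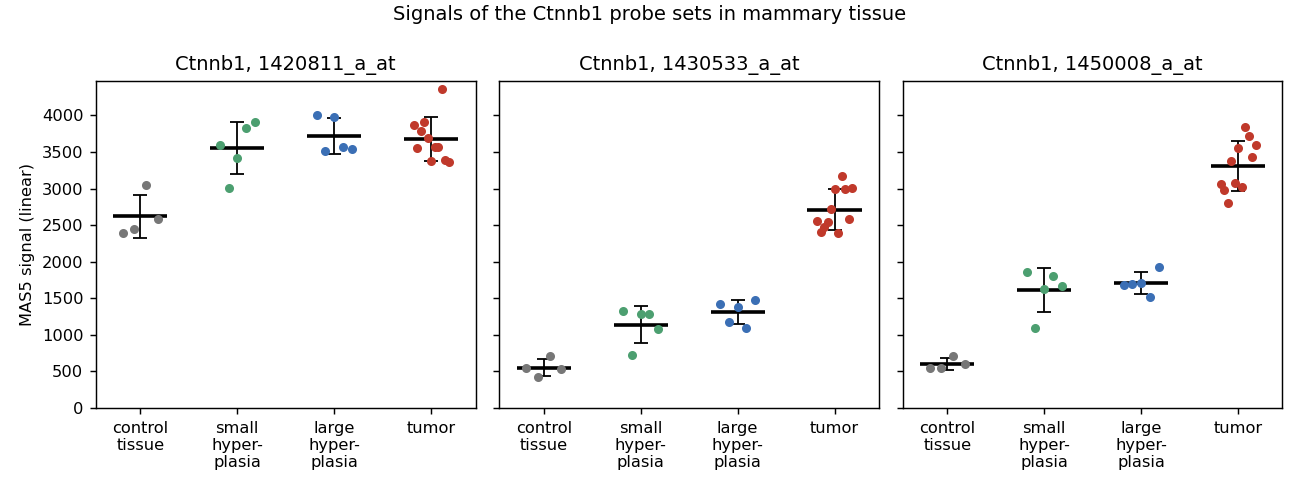
MAS5 signal (linear axis from 0) of the 3 Ctnnb1 probe sets on each tissue array, by group; points are arrays, horizontal bars are means and whiskers are 1 SD. With 1430533_a_at and 1450008_a_at the 11 tumors sit above every hyperplasia, whereas with 1420811_a_at tumors and hyperplasias share 1 range.

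The disagreement between the probe sets was tested within arrays. The gap, log2(signal + 16) of 1420811_a_at minus that of another Ctnnb1 probe set on the same array, also holds the unequal brightness of the probes, so only its difference between groups was read. The gap to 1450008_a_at averaged 0.15 ± 0.19 in tumors (SD, n = 11), 1.12 ± 0.16 in large hyperplasias (SD, n = 5) and 1.15 ± 0.19 in small hyperplasias (SD, n = 5), against 2.10 ± 0.04 in control tissue (SD, n = 4). The gap to 1430533_a_at averaged 0.44 ± 0.19 in tumors, 1.50 ± 0.16 in large hyperplasias and 1.65 ± 0.27 in small hyperplasias, against 2.24 ± 0.18 in control tissue. Every K5ΔNβcat sample had a smaller gap than every control tissue, with both probe sets.

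The gap to 1450008_a_at was smaller than in control tissue by 1.95 in tumors (exact permutation p = 0.00073, the smallest that 1365 arrangements allow, adjusted p = 0.0022 over 6 gaps). It was smaller by 0.98 in large hyperplasias and by 0.95 in small hyperplasias (exact p = 0.0079 each, the smallest that 126 arrangements allow, adjusted p = 0.0095). The gap to 1430533_a_at was smaller by 1.8 in tumors (exact p = 0.00073, adjusted p = 0.0022), by 0.73 in large hyperplasias (exact p = 0.0079, adjusted p = 0.0095) and by 0.58 in small hyperplasias (exact p = 0.016, adjusted p = 0.016). All tests were two-sided.

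A second family of 6 gaps was chosen after these values had been seen. Tumors had smaller gaps than large hyperplasias, by 0.97 to 1450008_a_at and by 1.06 to 1430533_a_at (exact p = 0.00023 each, adjusted p = 0.00069). Between 1430533_a_at and 1450008_a_at themselves the gap moved by -0.15 in tumors (exact p = 0.029, adjusted p = 0.043), by -0.25 in large hyperplasias (exact p = 0.04, adjusted p = 0.048) and by -0.36 in small hyperplasias (exact p = 0.024, adjusted p = 0.043) against control tissue. In tumors against large hyperplasias it moved by 0.097, which did not pass (exact p = 0.066, adjusted p = 0.066).

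**Figure D2:**
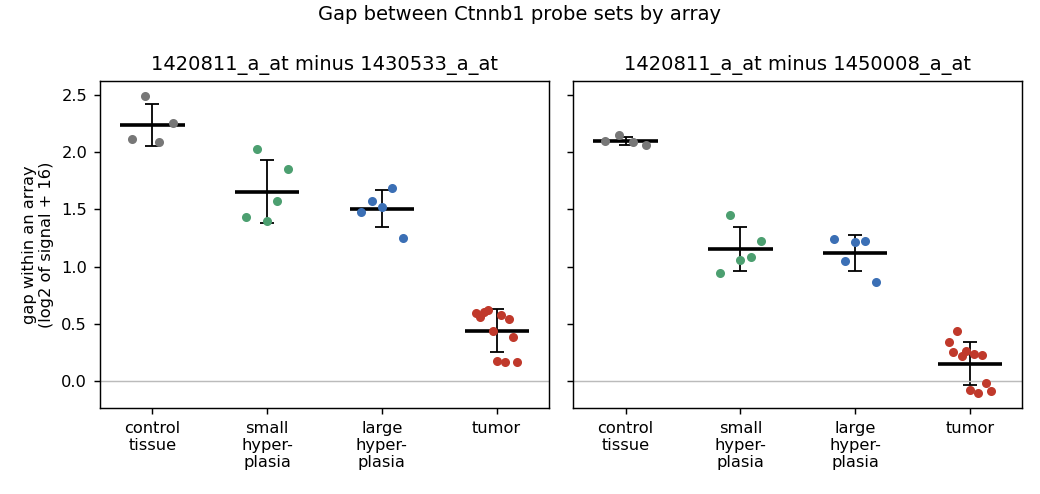
Gap within each tissue array between Ctnnb1 probe set 1420811_a_at and each of the other two (log2 of signal + 16), by group; points are arrays, bars are means and whiskers 1 SD. The gaps of tumors (mean 0.44 and 0.15) lie below those of hyperplasias, which lie below those of control tissue (mean 2.24 and 2.10).

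Such a spread between probe sets of 1 gene was rare on these arrays. In tumors against control tissue the largest and smallest Ctnnb1 difference lay 1.95 apart, and 2.06% of the 1310 genes with exactly 3 tested probe sets had a spread as wide (median 0.61). The corresponding spreads were 0.47 for Ctnna1 and 0.53 for Ctnnd1, which 65.5% and 58% of these genes reached. Brightness also differed between the probe sets. Of 330 probe sets with a control mean between 2000 and 4000, where 1420811_a_at lies, 1 (0.303%) had a tumor mean over double its control mean, against 142 of 1865 (7.61%) between 400 and 800, where the other 2 lie. Of the same 330 probe sets, 44 had a higher tumor mean than 1420811_a_at. The part of probe brightness, of probe position and of the transgene in the disagreement was not tested.

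E-cadherin had the largest difference of the 5 partner genes by their brightest probe sets. Cdh1 signals in control tissue were 216, 355, 329 and 454. They were 1161, 1139, 1162, 1011 and 1014 in small hyperplasias and 1011, 1452, 1312, 1047 and 1362 in large hyperplasias. Tumors lay between 1357 and 2069 with a median of 1715. Every K5ΔNβcat sample was above every control tissue. Against control tissue Cdh1 rose by 2.29 in tumors (SE 0.13, adjusted p = 4.6e-14, 4.94 times the control mean), by 1.85 in large hyperplasias (SE 0.15, adjusted p = 4.4e-10) and by 1.69 in small hyperplasias (SE 0.15, adjusted p = 6.2e-09). In tumors it was also 0.44 above large hyperplasias (SE 0.12, adjusted p = 0.0032), with 9 of 11 tumors above all 5, while large and small hyperplasias were not told apart (0.16, adjusted p = 0.50).

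P-cadherin, the cadherin of the basal layer, lay close to the background limit. Probe set 1426673_at of Cdh3 had signals of 25.7, 30.5, 39.8 and 30.2 in control tissue. It had 81.4, 44.7, 45.6, 93.5 and 41.6 in small hyperplasias and 85.7, 78.3, 49.0, 60.9 and 67.0 in large hyperplasias. Tumors ranged widely, between 27.4 and 108 with a median of 72.2, and 10 of 11 were above every control tissue. Cdh3 rose by 0.80 in tumors (SE 0.20, adjusted p = 0.00097) and by 0.81 in large hyperplasias (SE 0.23, adjusted p = 0.0052) against control tissue. The difference of 0.66 in small hyperplasias (SE 0.23, adjusted p = 0.03) was no longer called when small hyperplasia 1 or 4 or control tissue 1, 2 or 4 was left out (0.52 to 0.65, adjusted p = 0.059 to 0.095). The unequal-variance test of the study's methods, adjusted here over all probe sets, did not call it either (adjusted p = 0.096, unadjusted p = 0.025). Tumors and large hyperplasias had similar means (69.2 and 68.2, difference -0.01, SE 0.18, adjusted p = 0.96). Its control signals lay at the background limit, which limits how its differences compare with those of brighter genes.

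Plakoglobin, which sits in both adherens junctions and desmosomes, was called higher than in control tissue in tumors and was not called in either group of hyperplasias. Jup had signals of 316, 304, 211 and 347 in control tissue, 253, 384, 334, 209 and 264 in small hyperplasias, and 394, 447, 332, 355 and 332 in large hyperplasias. Tumors lay between 298 and 631 with a median of 394, and 9 of 11 were above every control tissue. The difference in tumors was 0.48 (SE 0.15, adjusted p = 0.0076), and without control tissue 3, the lowest, it was 0.34 (adjusted p = 0.07). The unequal-variance test named in the methods, adjusted here over all probe sets, did not call it (adjusted p = 0.06, unadjusted p = 0.036). Large hyperplasias differed by 0.33 (adjusted p = 0.13) and small hyperplasias by -0.04 (adjusted p = 0.90), and tumors by 0.15 from large hyperplasias (adjusted p = 0.39).

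α-Catenin was read by 3 tested probe sets, which differed in size of change. The brightest, 1437807_x_at, had signals of 1126, 1248, 1571 and 1279 in control tissue and 1724, 1880, 1761, 1654 and 1668 in small hyperplasias. Large hyperplasias had 1410, 1635, 1899, 1742 and 1821, and tumors lay between 1928 and 2521 with a median of 2209, above all other tissue arrays. Its suffix marks probes that may also match other transcripts. Ctnna1 by this probe set rose by 0.76 in tumors (SE 0.081, adjusted p = 9e-09), 0.38 in large hyperplasias (SE 0.093, adjusted p = 0.0016) and 0.42 in small hyperplasias (SE 0.093, adjusted p = 0.0014) against control tissue, and by 0.38 in tumors against large hyperplasias (SE 0.074, adjusted p = 0.00017). The methods' test, which takes unequal variances, did not call it after the same adjustment in large (adjusted p = 0.059, unadjusted p = 0.022) or small hyperplasias (adjusted p = 0.084, unadjusted p = 0.02).

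Probe set 1448149_at of Ctnna1 showed a smaller step. Control tissue lay between 1446 and 1500, small hyperplasias between 1479 and 1631, large hyperplasias between 1491 and 1676 and tumors between 1546 and 2081. The tumors were 0.29 above control tissue (SE 0.065, adjusted p = 0.00029) and 0.22 above large hyperplasias (SE 0.060, adjusted p = 0.0033), while large (0.07) and small hyperplasias (0.07) were not called against control tissue. The dimmer 1436631_at was called in tumors (0.29, SE 0.097, adjusted p = 0.011) and large hyperplasias (0.39, SE 0.11, adjusted p = 0.006). Without control tissue 1 the tumor difference was 0.24 (adjusted p = 0.052). The methods' test did not call it after adjustment (adjusted p = 0.071, unadjusted p = 0.045).

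p120 catenin was called higher in tumors than in control tissue by 2 of its 3 probe sets, more firmly by 1422450_at than by 1437448_s_at. Ctnnd1 probe set 1422450_at had signals of 179, 157, 140 and 144 in control tissue, 204, 182, 194, 203 and 188 in small hyperplasias and 189, 172, 150, 123 and 140 in large hyperplasias. Tumors lay between 204 and 321 with a median of 256, above every control tissue and every large hyperplasia. The difference was 0.65 from control tissue (SE 0.11, adjusted p = 8.2e-06) and 0.66 from large hyperplasias (SE 0.099, adjusted p = 6.7e-06). Small hyperplasias were all above control tissue, yet the difference of 0.30 was not called (adjusted p = 0.062), except without control tissue 1 (0.37, adjusted p = 0.041).

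By 1437448_s_at, the brightest Ctnnd1 probe set in tissue, control tissue had 230, 353, 222 and 243 and tumors lay between 270 and 412 with a median of 322. Hyperplasias lay between 255 and 320. Tumors were 0.37 above control tissue (SE 0.10, adjusted p = 0.0027), a call that the methods' test did not make (adjusted p = 0.12, unadjusted p = 0.08). They were 0.24 above large hyperplasias (SE 0.094, adjusted p = 0.036), a call that was lost when any of 7 of the 16 arrays was left out (tumor 7, 9 or 11, or large hyperplasia 1, 2, 3 or 4). Large hyperplasias differed from control tissue by 0.13 (adjusted p = 0.39), and without control tissue 2, the highest, by 0.27 (adjusted p = 0.046). The third probe set, 1445830_at, had signals between 34.5 and 69.7 in tissue and was called in no comparison.

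**Figure D3:**
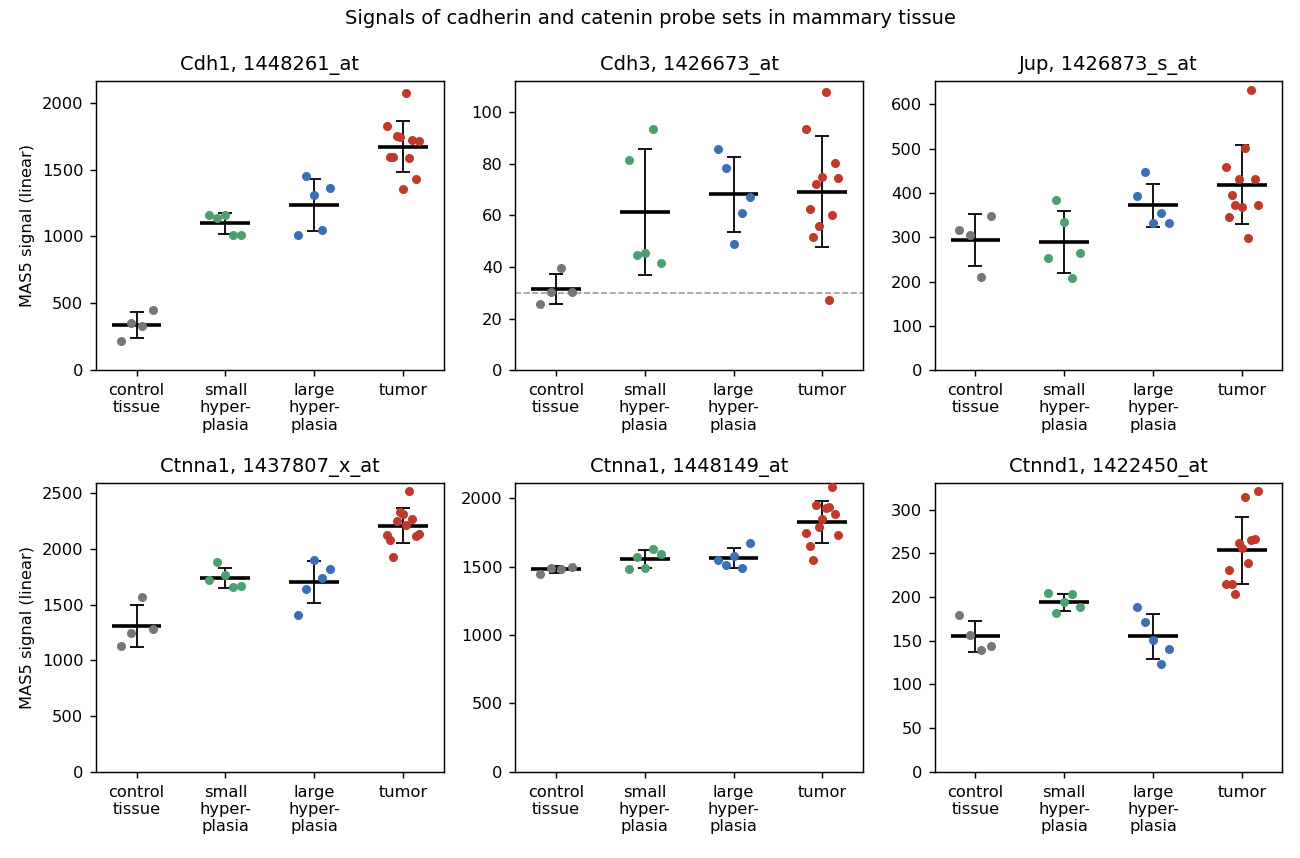
MAS5 signal (linear axes from 0) of probe sets of Cdh1, Cdh3, Jup, Ctnna1 (2 probe sets) and Ctnnd1 on each tissue array, by group; points are arrays, bars are means, whiskers 1 SD, and the dashed line in the Cdh3 panel is the background limit of 30. Cdh1 in control tissue (216 to 454) is separate from all other groups, and Ctnnd1 by 1422450_at is separate in tumors (204 to 321) from control tissue and large hyperplasias.

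Over the 12 tested member probe sets, 11 were called higher and 0 lower in tumors than in control tissue, with a median difference of 0.57. Of all 24086 probe sets tested, 69.1% were called in that comparison, 33.2% as higher and 35.9% as lower, and their median was -0.03. In 7 of the 12 the groups did not overlap, against 41.7% of all. In large hyperplasias 7 were called higher and 0 lower (median 0.39, against 45.7% of all called, 25.6% as higher and 20.1% as lower, and a median of 0.06), with 6 not overlapping (37.4% of all). In small hyperplasias 6 were called higher and 0 lower (median 0.36, against 31.2% called, 16.8% as higher and 14.4% as lower, and a median of 0.00), with 6 not overlapping (22.1% of all).

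Tumors against large hyperplasias gave 7 called higher and 0 lower (median 0.23, against 53.9% called, 21% as higher and 32.9% as lower, and a median of -0.09). These were 2 probe sets each of Ctnnb1, Ctnna1 and Ctnnd1 and the Cdh1 probe set, and in 4 of the 12 the groups did not overlap (23.2% of all). Large against small hyperplasias gave 0 called (9.63% of all probe sets were called, 5.01% as higher and 4.62% as lower), and at an unadjusted p under 0.05 there were 3 of the 12 by limma (25.6% of all) and 1 by the unequal-variance test that the methods name (24% of all), shares no higher than those over all probe sets. Without small hyperplasia 2, the Ctnna1 probe set 1436631_at was called there (0.32, adjusted p = 0.031).

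By the study's own fold rule, a ratio of group medians over 2, 4 member probe sets passed in tumors against control tissue (30.9% of all passed in either direction), namely 1430533_a_at and 1450008_a_at of Ctnnb1, Cdh1 and Cdh3. The same 4 passed in large hyperplasias (17.5% of all) and 3 of them, without Cdh3, in small hyperplasias (9.8% of all). No member passed in tumors against large hyperplasias (14.7% of all), in large against small hyperplasias (3.66% of all) or in sorted cells (15.8% of all).

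**Figure D4:**
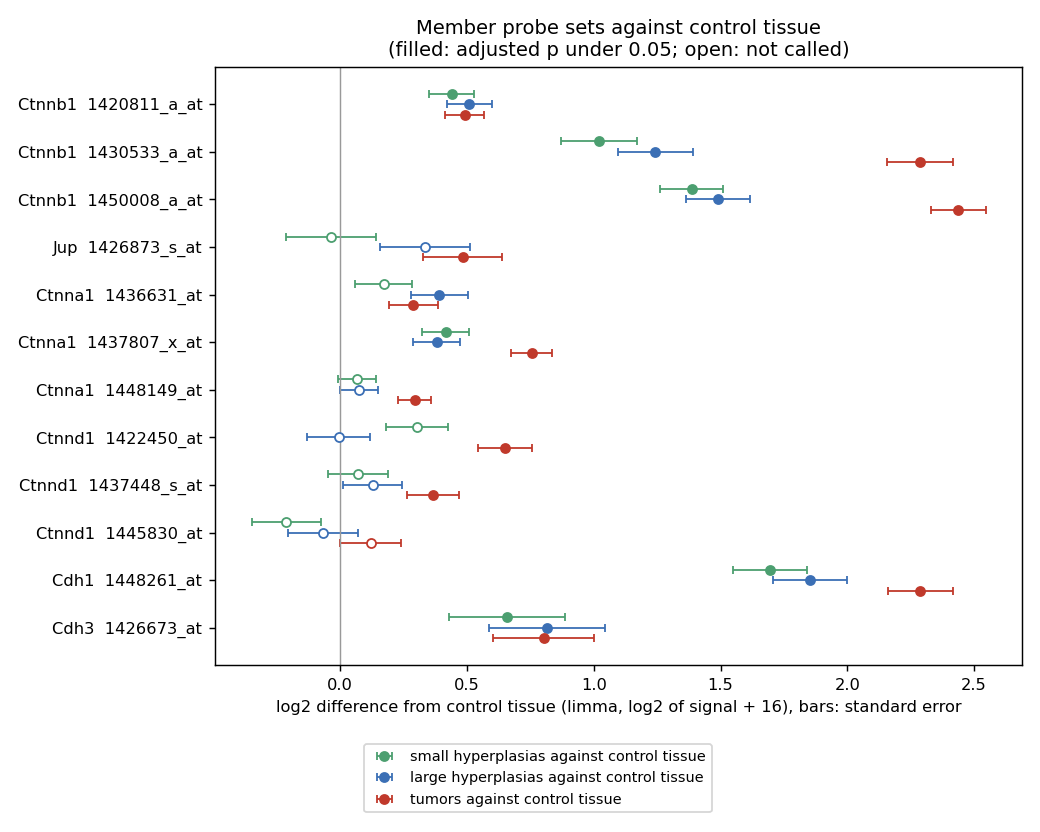
Log2 difference from control tissue (log2 of signal + 16) of the 12 tested member probe sets in small hyperplasias, large hyperplasias and tumors; whiskers are SE and filled points have an adjusted p under 0.05. Tumors lie to the right of both hyperplasia groups for 1430533_a_at and 1450008_a_at of Ctnnb1 (2.29 and 2.44) but not for 1420811_a_at (0.49).

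Among the other proteins of the junction, the 17 tested linkers and accessory proteins had 9 called higher and 3 lower in tumors than in control tissue, with a median of 0.59, against 33.2% of all probe sets higher and 35.9% lower. Nectin4, an adhesion receptor of the junction, averaged 135 ± 25.5 in tumors and 27.3 ± 11.6 in control tissue (SD, n = 11 and 4), a difference of 1.83 (adjusted p = 4.5e-11). Nectin3, of the same family, rose by 1.31 (adjusted p = 5.1e-08). Actn1, the actin crosslinker α-actinin, rose by 1.49 (adjusted p = 6.7e-12), and Ptprf, a receptor phosphatase that binds β-catenin, by 1.07 (adjusted p = 5.3e-07). Those that fell were named after their values had been seen: Pkp4 (-0.64), Arvcf (-0.54) and vinculin (Vcl, -0.42). In large hyperplasias 9 were higher and 1 lower (25.6% and 20.1% of all), and in small hyperplasias 7 were higher and 1 lower (16.8% and 14.4% of all).

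Of 4 other cadherins tested, Cdh11, a cadherin of mesenchymal cells, rose in tumors, with a mean signal of 911 ± 386 against 145 ± 31.8 in control tissue (2.42, adjusted p = 1e-08). It was also higher in large (1.99) and small hyperplasias (2.11). Cdh5, the cadherin of endothelium, fell by 0.68 in tumors (adjusted p = 0.0069), and Cdh13 fell by 0.83 (adjusted p = 0.00017). Of these 4 cadherins 1 was called higher and 2 lower in tumors, against 33.2% higher and 35.9% lower over all probe sets. All 6 endothelial markers, a list that holds Cdh5 itself, were also called lower there. The part of endothelial cell numbers in the fall of Cdh5 was not tested. N-cadherin (Cdh2) averaged 35.7 ± 12.6 in tumors and 39.8 ± 3.9 in control tissue and was not called (-0.14, adjusted p = 0.42).

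The 7 tested desmosomal partners of plakoglobin gave 6 called higher and 1 lower in each of the 3 groups of K5ΔNβcat tissue, with medians of 2.38 in tumors, 1.95 in large hyperplasias and 1.54 in small hyperplasias. Over all probe sets 33.2%, 25.6% and 16.8% were called higher in these groups. Desmoplakin (Dsp), which ties desmosomes to keratin filaments, averaged 3740 in tumors and 382 in control tissue (3.26, adjusted p = 8e-18). The desmosomal cadherin Dsc2 averaged 713 in tumors and 29.8 in control tissue (3.90, adjusted p = 1.3e-11). Its relative Dsc3 was under 30 in all 4 control tissues and was at least 29.1-fold higher in tumors, with the limit of 30 taken as the control level (adjusted p = 2.5e-15). Plakophilin 1 (Pkp1), a desmosomal plaque protein, rose by 2.38 (adjusted p = 3.1e-12), while plakophilin 2 (Pkp2), the one that fell and named for it, averaged 135 in tumors and 492 in control tissue (-1.78, adjusted p = 9e-09). Jup itself changed by 0.48 in the same tumors.

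Of 7 tested repressors of Cdh1, 4 were called lower and 2 higher in tumors than in control tissue (median -0.87, against 35.9% of all lower and 33.2% higher). Zeb2 averaged 182 in tumors and 722 in control tissue (-1.94, adjusted p = 1.1e-08), and Zeb1 averaged 186 in tumors and 459 in control tissue (-1.27, adjusted p = 1.2e-06). Twist2 fell by 0.98 (adjusted p = 0.017) and Twist1 by 0.87 (adjusted p = 1.9e-05). Snai2 (0.71, adjusted p = 0.0038) and Snai1 (0.58, adjusted p = 0.0011), named after their values had been seen, were higher. The 5 markers of fibroblasts, cells that also express Zeb and Twist genes, had a summed signal of 2147 to 7923 in tumors against 14688 to 15039 in control tissue, and their part in these differences was not tested. In large hyperplasias 3 repressors were higher and 2 lower (25.6% and 20.1% of all), and in small hyperplasias 0 of 7 were called by limma (31.2% of all).

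Of 16 tested genes of the complex that marks β-catenin for degradation, 6 were called higher and 6 lower in tumors than in control tissue (median 0.05), shares close to the 33.2% and 35.9% over all probe sets. Csnk1a1, the kinase that places the first mark on β-catenin, rose by 0.99 (2277 ± 230 in tumors against 1133 ± 75.3 in control tissue, adjusted p = 5.9e-11). Btrc, which recognises marked β-catenin, fell by 0.92 (adjusted p = 7.5e-09), and the kinase Gsk3b fell by 0.49 (adjusted p = 0.0012). Axin2, both a scaffold of the complex and a target of β-catenin signalling, averaged 97.9 in control tissue, 190 in small hyperplasias, 198 in large hyperplasias and 140 in tumors. Against control tissue Axin2 was 0.87 higher in small hyperplasias (adjusted p = 0.0038). It was 0.95 higher in large hyperplasias (adjusted p = 0.00089) and 0.45 higher in tumors (adjusted p = 0.036), and it was lower in tumors than in large hyperplasias (-0.50, adjusted p = 0.019).

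Of 9 tested nuclear partners of β-catenin, 2 were called higher and 3 lower in tumors than in control tissue (median 0.12). Over all probe sets 69.1% were called, 33.2% as higher and 35.9% as lower. The coactivator Bcl9l fell by 0.60 (adjusted p = 0.0011) and the acetyltransferases Ep300 by 0.52 (adjusted p = 1.3e-05) and Crebbp by 0.33 (adjusted p = 0.0013). Cdc73 was 0.24 higher (adjusted p = 0.024).

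Among the 11 tumors the members varied to different degrees. The highest over the lowest tumor was 1.30 for Ctnnb1 by 1420811_a_at, 1.37 by 1450008_a_at, 1.31 for Ctnna1 by 1437807_x_at and 1.52 for Cdh1, against 2.12 for Jup and 3.94 for Cdh3. Of the 15 pairs of member genes by their brightest probe sets, none was correlated across tumors after adjustment (lowest adjusted p = 0.50 for Pearson's r and 0.32 for Spearman's rho, permutation tests with 100000 resamples). The highest r was between Ctnnb1 and Jup (r = 0.61, permutation p = 0.048, Spearman's rho = 0.58, p = 0.064, n = 11), and without the 2 tumors farthest from the median of Ctnnb1 it was 0.29. The highest rho was between Jup and Cdh1 (rho = 0.65, permutation p = 0.033, r = 0.44, and r = 0.59 without the 2 tumors farthest from the median of Jup). Ctnnb1 and Cdh1 had a rho of 0.62 (permutation p = 0.047) and an r of 0.40, or 0.48 without 2 such tumors.

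The genes whose signals ran most alike with a member over the 25 tissue arrays were ranked by Spearman's rho among 7455 genes, as a description with no test, since all arrays share the 4 stages. For Cdh1 these were Ube2e1 (0.95), Ivl (0.95), which encodes the cornified envelope protein involucrin, and Chmp2b (0.94). For Cdh3 they were Ankrd16 (0.75), Kdm3a (0.72) and Plch2 (0.70). For Ctnnb1 by 1420811_a_at they were G3bp1 (0.80), Ash2l (0.80) and Tbca (0.78), and by 1450008_a_at, a ranking added after its values had been seen, Tpd52 (0.95), Ube2j2 (0.95) and Lxn (0.95).

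In sorted basal cells, Myc itself had signals of 141, 428 and 42.3 in the 3 K5creMycL/L pools and 1479, 1677 and 1869 in the 3 control pools. The summed signal of the 4 basal markers was 13749 to 18669 in K5creMycL/L cells and 12106 to 13656 in control cells. Of 5 adipocyte markers, 3 in K5creMycL/L cells and 4 in control cells were under 30 on every array. The adipocyte sums were still 1316 to 4251 and 1153 to 3429. The luminal markers summed to 3705 to 4665 in K5creMycL/L cells and 3280 to 3977 in control cells, and the fibroblast markers to 1906 to 2382 and 1448 to 1669. These cells were amplified with another kit from much less RNA, so their signals are not set against those of tissue.

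None of the 12 tested member probe sets was called between K5creMycL/L and control basal cells. Nor was any of all 19737 probe sets tested (0%) by limma or by the methods' test after adjustment. Myc itself, the deleted gene, was among those not called, so the lack of calls does not show that the members were unchanged. The paper reports numerous genes as downregulated in Myc-deficient basal cells. At an unadjusted p under 0.05 limma gave 1259 probe sets and the methods' test 880, and 1 and 0 of the members. The median over the 12 members was 0.35, against 0.00 over all. Same-numbered pools deviated together, so they were also compared within pairs, a pairing taken from these same data and not from the labels. Of the 12 member probe sets, 7 were higher in the K5creMycL/L pool in 3 of 3 pairs (17.4% of all) and 0 were lower in all pairs (17.2% of all). Probe sets of 1 gene were read on the same pools and are not independent, and no test was run on this count. These 7 were 1420811_a_at of Ctnnb1, 1437448_s_at of Ctnnd1, 3 probe sets of Ctnna1, and Jup and Cdh1. With the pool number as a block, none was called either (adjusted p = 0.29 to 0.92 for the brightest probe sets of the 6 genes).

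Ctnnb1 by 1420811_a_at had signals of 4181, 4964 and 5169 in K5creMycL/L cells and 3485, 4006 and 4055 in control cells (0.31, SE 0.18, adjusted p = 0.81). By 1450008_a_at they were 1106, 1294 and 916 in K5creMycL/L cells and 1007, 1115 and 1171 in control cells (0.00, SE 0.24, adjusted p = 1.0). By 1430533_a_at they were 305, 183 and 362 in K5creMycL/L cells and 236, 521 and 218 in control cells (-0.13, SE 0.39, adjusted p = 0.97). The pools thus did not overlap for 1420811_a_at and were mixed for the other 2. Among the 12 tested member probe sets, 3 had pools that did not overlap in sorted cells. The share over all probe sets was not worked out for sorted cells, so this separation is given as a description only.

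Cdh1 was the member with the lowest unadjusted p. Its signals were 1275, 1491 and 1459 in K5creMycL/L cells and 735, 995 and 1199 in control cells, which did not overlap (0.55, SE 0.25, unadjusted p = 0.046 by limma, adjusted p = 0.78). Cdh3, well above background in these cells, had 175, 220 and 239 in K5creMycL/L cells and 189, 147 and 213 in control cells by 1426673_at (0.20, SE 0.33, adjusted p = 0.93). Its second probe set, 1441255_at, which was under 30 in all tissue, had 172, 320 and 118 in K5creMycL/L cells and 192, 73.6 and 196 in control cells (0.37, SE 0.45, adjusted p = 0.91).

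Jup had 1128, 1848 and 803 in K5creMycL/L cells and 753, 1322 and 700 in control cells (0.42, SE 0.34, adjusted p = 0.85). Ctnna1 by 1437807_x_at had 3623, 4446 and 3323 in K5creMycL/L cells and 2835, 3380 and 2728 in control cells (0.34, SE 0.19, adjusted p = 0.81). In both genes the pools overlapped between genotypes, while each K5creMycL/L pool was above the control pool of its own number. Ctnnd1 by 1422450_at, its brightest probe set here, had 771, 886 and 482 in K5creMycL/L cells and 911, 826 and 507 in control cells (-0.07, SE 0.32, adjusted p = 0.98). By 1437448_s_at it had 271, 280 and 409 in K5creMycL/L cells and 192, 205 and 253 in control cells, which did not overlap (0.52, SE 0.32, adjusted p = 0.82).

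**Figure D5:**
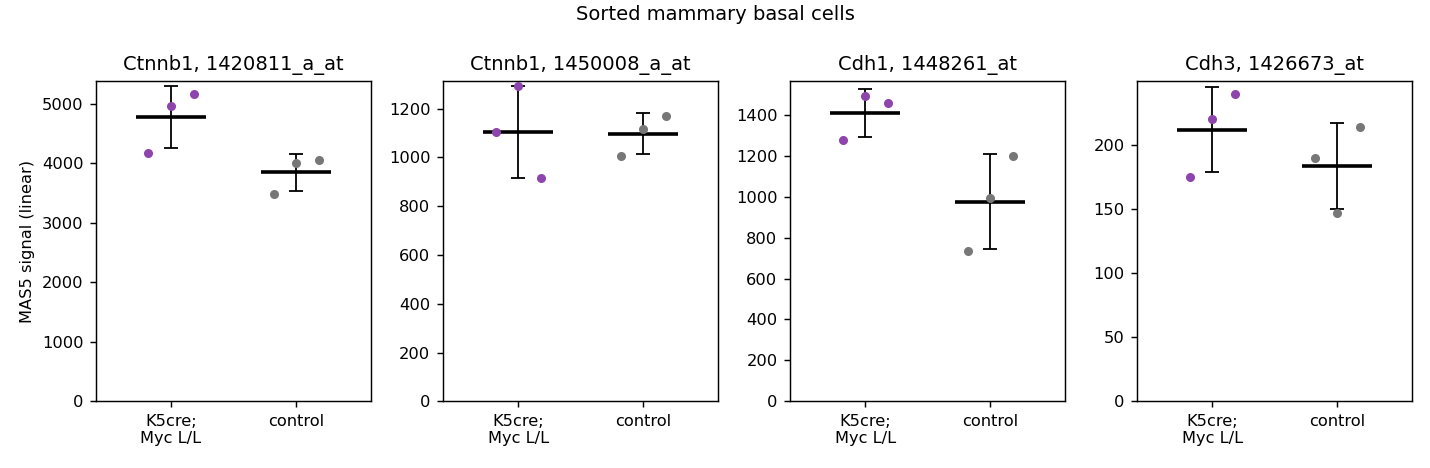
MAS5 signal (linear axes from 0) of Ctnnb1 (2 probe sets), Cdh1 and Cdh3 in sorted basal cells of K5creMycL/L mice (left) and control mice (right); points are pools, bars are means and whiskers 1 SD (n = 3 each). The pools are apart for 1420811_a_at and Cdh1 and overlap for 1450008_a_at and Cdh3, and no difference shown was called.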

How the data were processed

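The authors hybridised RNA of mammary tissue and of sorted basal cells to Affymetrix Mouse Genome 430 2.0 arrays, and the deposited values are MAS5 intensities on a linear scale, made with Affymetrix Expression Console (its version was not stated). Each array has a mean of 100 once 2% of probe sets at each end are left out. Probe sets took their genes from the platform annotation, and 64 control probe sets were left out. Tissue RNA was labelled with an Affymetrix kit and sorted-cell RNA amplified with a NuGEN kit, so both were fitted apart.

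The signals were used as log2(signal + 16) without further normalization. All 25 tissue arrays, and the 6 sorted-cell arrays, were fitted with limma 3.58.1 (R 4.3.3; lmFit, contrasts.fit, eBayes with trend), on probe sets whose higher group median reached 30, and p-values were adjusted by Benjamini-Hochberg over all of them. The model was tested on simulated data. A gene was represented by its brightest probe set, by mean log2 signal over the arrays fitted. Permutation tests were run in Python 3.11.15. No depth is recorded for arrays, whose number limits the precision. No batch is named in the labels, and no pair of arrays was identical.

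All probe sets of the members were named, and of each list of related genes up to 4 with the largest called difference in tumors, with Axin2 and Cdh2. Members and lists were chosen with earlier results of these data known. Klf8 and Dsg3, and Plin1 and Cfd among the markers, were not matched in the annotation. Alternatives covered the offset, the filter, the background floor, quantile normalization, the methods' t-test, a fold rule, a replicate block, the mean of all probe sets and leaving out each array. Replicate numbers recur between groups. In sorted cells same-numbered pools deviated together (correlations 0.22 to 0.26 over 19737 probe sets, 3 of 3 highest with their own number), a pairing that comes from the data and not from the labels.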

Additional observations from a re-analysis of the deposited data

Results flagged for a closer look

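Of 42 groups of 4 to 10 samples over the member probe sets, 3 held a sample far from the others of its group, where chance alone gives about 1 in 20. Control tissue 4 had a signal of 182 for Ctnna1 by 1436631_at, against 134 to 142 in the other 3. Control tissue 2 had 353 for Ctnnd1 by 1437448_s_at, against 222 to 243 in the other 3. Small hyperplasia 5 had 59.4 for Ctnnd1 by 1445830_at, against 34.5 to 40.3 in the other 4.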

How the results depend on the processing

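The counts of member probe sets called kept within 1.5 times under every alternative except the fold rule, which asks for a ratio of group medians over 2, and 1 left-out array in large against small hyperplasias. By that rule 4 of the 12 passed in tumors, 4 in large hyperplasias and 3 in small hyperplasias against control tissue, and 0 in tumors against large hyperplasias. With each array left out the counts were 10 to 11, 7 to 8, 5 to 6 and 6 to 7 in the same order, 0 to 1 for large against small hyperplasias (1 without small hyperplasia 2) and 0 in sorted cells. The gap between Ctnnb1 probe sets kept its side of the threshold under all alternatives run, with -1.97 to -1.92 for 1450008_a_at and -1.84 to -1.71 for 1430533_a_at in tumors when 1 array was left out.

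By single genes, the methods' t-test, here with an adjustment that the methods do not name, lost the calls in tumors of Jup (adjusted p = 0.06) and Ctnnd1 (adjusted p = 0.12). It also lost those of Ctnna1 in large (adjusted p = 0.059) and small hyperplasias (adjusted p = 0.084) and of Cdh3 in small hyperplasias (adjusted p = 0.096), and the cause was not tested. With no filter, the Ctnnd1 call in tumors against large hyperplasias was lost (adjusted p = 0.056). In tissue, same-numbered samples did not clearly deviate together (correlations -0.15 to 0.11). Whether any of them share an animal cannot be read from this. The replicate block gave 10 called members in tumors, 7 in large and 7 in small hyperplasias against control tissue and 5 in tumors against large hyperplasias, without the brightest Ctnnd1 probe set in tumors (0.20, adjusted p = 0.12, against control tissue, and 0.10, adjusted p = 0.45, against large hyperplasias). In sorted cells the block changed no call.

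Signs turned only where no difference was called in the fit as reported. In tumors against large hyperplasias Ctnnb1 was 0.072 after quantile normalization, 0.02 with the replicate block, 0.0077 and 0.0054 without large hyperplasia 1 and 3, and 0.66 (adjusted p = 1.3e-06) as the mean of its 3 probe sets, which brings in the other 2. There Cdh3 was 0.13 after quantile normalization and 0.0076 to 0.081 without tumor 3, 5 or 8 or large hyperplasia 1 or 2 (0.016, 0.0076, 0.081, 0.061 and 0.033). Jup in small hyperplasias against control tissue was 0.0020, 0.066, 0.0029 and 0.047 without small hyperplasia 1, small hyperplasia 4, control tissue 1 and control tissue 4. In large against small hyperplasias Ctnna1 was 0.029 without large hyperplasia 1 and 0.064 as the mean of its probe sets, and Ctnnd1 was -0.036 as that mean. In sorted cells Ctnnd1 was 0.09 and 0.02 without control pool 1 and 2, 0.18 without K5creMycL/L pool 3, and 0.22 as the mean of its probe sets. With 1 array left out these values ranged from -0.18 to 0.066 for Jup in small hyperplasias, -0.044 to 0.0077 for Ctnnb1 and -0.10 to 0.081 for Cdh3 in tumors against large hyperplasias, -0.077 to 0.029 for Ctnna1 in large against small hyperplasias and -0.32 to 0.18 for Ctnnd1 in sorted cells. Signals near 30, as for Cdh3 in control tissue, limit what a fold can show.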
